A study of Mus musculus with 6 samples.

Results

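The 9 genes described here encode surface and secreted proteins that mark homeostatic microglia: Tmem119, Siglech, Gpr34, Fcrls, Selplg, Slc2a5 and Gpr56 at the cell surface, and Olfml3 and Sparc in the secreted fraction. They were chosen by gene symbol, and all 9 were found among the 14148 genes of the deposited table. RNA was sequenced from hippocampal microglia, the macrophages that live in brain tissue. They came from male C57BL/6 mice 18 months old that carried no genetic change or treatment named in the labels. Live cells with CD11b and low CD45, a usual microglial gate, were stained with BODIPY, a dye for neutral lipid, and split into a lipid droplet-rich fraction (LD-high, BODIPY-high, 3 libraries) and a lipid droplet-poor fraction (LD-low, BODIPY-low, 3 libraries). Each sample pooled the hippocampi of 3 mice and held about 10000 sorted cells. Nothing in the labels says that the pools hold different mice, so the p-values cover only the spread among these libraries, part or all of which may be technical.

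Microglia at rest carry a set of sensing and secreted proteins that other macrophages largely lack, and its upkeep in the mouse depends on transforming growth factor beta. Genes of this set are known to fall when microglia respond to injury, amyloid or systemic inflammation, which is why they are read as a measure of the resting state. Setting LD-high beside LD-low cells asks whether aged microglia that hold many lipid droplets carry less or more of these transcripts than those that hold few.

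Promoter sequences are shown first for 4 of the 9 genes: Fcrls, which had the highest log2 change of the 9, Siglech, whose change was nearest 0, and the secreted Olfml3 and Sparc, of which Olfml3 had the lowest. Each runs from 250 bases before to 50 bases after the start of the gene, 5′ to 3′ on the strand of the gene, and comes from RefSeq on the GRCm38.p6 build. Capitals mark GAGGAA, read on both strands, a core of the sites bound by PU.1, the transcription factor that macrophages and microglia depend on. The windows lie at chr3:87263475-87263774 on the minus strand for Fcrls, chr7:55767934-55768233 on the plus strand for Siglech, chr11:55420031-55420330 on the minus strand for Sparc and chr3:103737952-103738251 on the minus strand for Olfml3.
Fcrls: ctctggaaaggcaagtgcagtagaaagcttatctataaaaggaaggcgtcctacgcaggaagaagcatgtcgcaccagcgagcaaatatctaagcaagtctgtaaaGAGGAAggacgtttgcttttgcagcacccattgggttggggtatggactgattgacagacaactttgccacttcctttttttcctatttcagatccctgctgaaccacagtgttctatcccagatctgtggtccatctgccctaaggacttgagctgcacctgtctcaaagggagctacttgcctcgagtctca
Siglech: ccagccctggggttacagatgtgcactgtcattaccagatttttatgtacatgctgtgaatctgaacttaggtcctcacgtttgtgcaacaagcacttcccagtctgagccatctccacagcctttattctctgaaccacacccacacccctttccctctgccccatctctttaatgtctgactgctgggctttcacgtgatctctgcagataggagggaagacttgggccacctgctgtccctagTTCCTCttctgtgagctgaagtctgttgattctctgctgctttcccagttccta
Sparc: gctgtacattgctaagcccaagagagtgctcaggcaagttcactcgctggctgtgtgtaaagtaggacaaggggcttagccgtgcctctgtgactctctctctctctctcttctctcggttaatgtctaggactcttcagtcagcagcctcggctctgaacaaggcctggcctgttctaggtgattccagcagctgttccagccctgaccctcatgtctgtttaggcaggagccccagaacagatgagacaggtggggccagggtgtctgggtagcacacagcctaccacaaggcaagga
Olfml3: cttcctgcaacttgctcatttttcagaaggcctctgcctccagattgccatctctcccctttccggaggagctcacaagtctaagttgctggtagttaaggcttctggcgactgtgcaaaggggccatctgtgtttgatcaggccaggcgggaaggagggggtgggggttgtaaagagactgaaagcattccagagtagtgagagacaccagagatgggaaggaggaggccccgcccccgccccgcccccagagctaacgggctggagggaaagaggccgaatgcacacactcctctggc
The first base of the core stood at position -144 in Fcrls and at position -4 in Siglech, counted from the start of the gene, and in neither of the secreted genes. RefSeq gave 7 windows for 6 of the 9 genes, with 2 for Gpr56 under its current symbol Adgrg1, and the core was present in 2 of the 7, against 28.3% of 32851 promoters of the same length. The letters TGTGGT, a core of RUNX sites, were present on either strand in 4 of the 7, against 16.8% of those promoters. TATAAA was present in 1 of the 7, that of Fcrls, against 13.6%. None of these 3 motifs contains another on either strand, and a match is only one of letters, not a site. Tmem119, Gpr34 and Selplg were not used here for promoters.

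Libraries held between 15895576 and 36894483 reads in genes in LD-high samples and between 23808102 and 38489448 in LD-low samples. Values are normalized counts, that is, reads divided by a size factor for each library. Of the microglial markers, P2ry12 averaged 200006 ± 12648 normalized counts in LD-high and 200733 ± 5127 in LD-low libraries, and Csf1r averaged 470700 ± 80392 in LD-high and 472635 ± 69273 in LD-low libraries (SD, n = 3 each). Neither of them passed limma, nor did Cx3cr1 or C1qa. The smallest p was that of Cx3cr1, at -0.34 ± 0.11 (SE) on the log2 scale (limma adjusted p 0.115). In bulk samples, fewer cells of a type and less RNA per cell cannot be told apart. The 6 neutrophil markers analysed were at 0 reads in every LD-high library, which allows up to 2.23 to 5.01 normalized counts a gene and library, and summed to 1220, 1583 and 4523 in LD-low replicates 1, 2 and 3, and all 6 (S100a8, S100a9, Ngp, Ltf, Camp and Lcn2) fell. The 6 choroid plexus markers ran the other way, with 5571, 1711 and 5471 in LD-high replicates 1, 2 and 3, against 951, 363 and 1787 in LD-low ones, and 3 of 5 tested (Ttr, Kl and Enpp2) rose. Among 2 tested monocyte markers Chil3 fell, at 0 reads in the LD-high libraries and between 123 and 506 normalized counts in LD-low ones. Ccr2, the other, did not pass, with a log2 change of -0.42 ± 0.22 (SE, limma adjusted p 0.305). It had between 84.0 and 127 normalized counts in LD-high and between 114 and 155 in LD-low libraries. None of 6 border macrophage, 3 astrocyte, 4 oligodendrocyte or 1 neuron marker tested passed limma. The smallest p were those of Folr2 at -1.11 ± 0.39 and F13a1 at -0.63 ± 0.40, Slc1a3 at 0.24 ± 0.08 and Aldoc at 0.40 ± 0.41, Mag at 0.35 ± 0.10 and Mbp at 0.22 ± 0.10, and Rbfox3 at 0.49 ± 0.64 on the log2 scale (SE for each). The part of these cells in the values of the 9 genes was not tested, and T and NK cell markers were not analysed here.

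None of the 9 genes passed the test between the fractions, and all were among the most abundant microglial transcripts in both. By limma on log2(normalized count + 1), adjusted by the Benjamini-Hochberg method over 11624 genes, 0 rose and 0 fell, where 3.36% of all tested genes were called, 1.53% higher and 1.82% lower. None had an unadjusted p under 0.05. On the recovered reads, edgeR's quasi-likelihood test and DESeq2 also called 0 of the 9, where they called 3.24% and 5.85% of the genes they tested. The adjusted p ran from 0.343 for Olfml3 to 0.957 for Siglech. The 95% confidence intervals of the 9 log2 changes lay between -0.37 and 0.29, and each of them spanned 0. Of the 9, 5 had log2 changes below 0 and 4 above it, where 51.3% of all tested genes lay below 0 and 48.7% above. Their median log2 change was -0.07, against -0.01 over all tested genes, and their median absolute log2 change was 0.10, against 0.14. The fewest reads of any of the 9 in a library were 24997, a counting error of 0.632%. The coefficient of variation between the 3 libraries of a group ran from 1.97% to 10.9%. The median standard error of the 9 log2 changes was 0.08, against 0.11 over all tested genes.

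**Figure D1:**
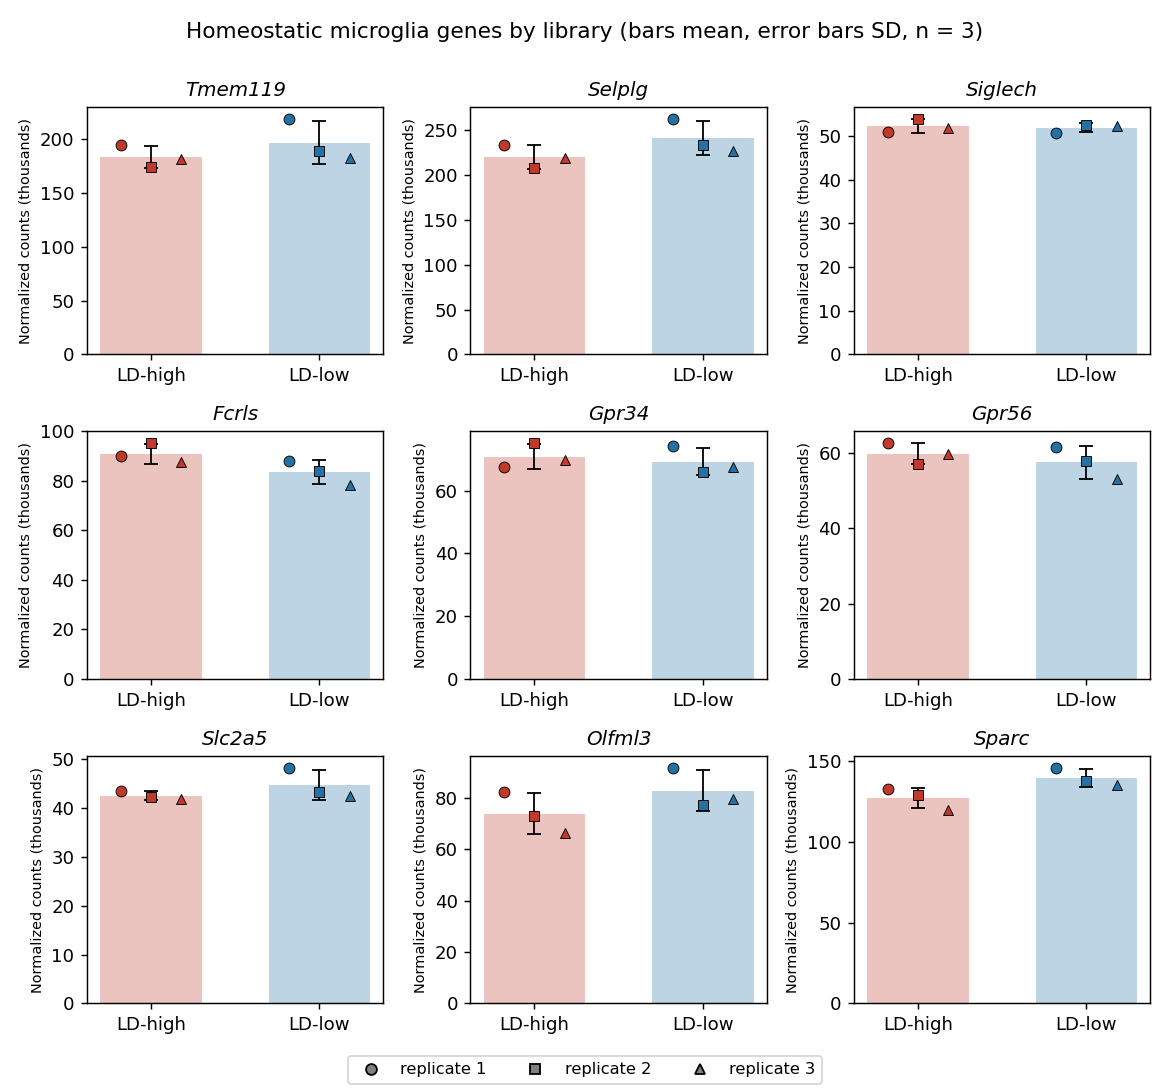
Normalized counts (in units of 1000, axes from 0) of the 9 genes in the LD-high and LD-low libraries, with symbols for replicates, bars for the mean and error bars for the SD (n = 3 each). The groups overlap for every gene other than Sparc, whose 3 LD-high libraries all lie below the 3 LD-low ones.

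Tmem119 encodes a membrane protein that is widely used to tell microglia from other macrophages, and lies on chromosome 5 from 114243738 to 114250525 on the minus strand of the mm9 build. It had 194884, 174502 and 181721 normalized counts in LD-high replicates 1, 2 and 3, against 219216, 189544 and 182160 in LD-low replicates 1, 2 and 3. LD-low replicate 1 stood above the other libraries, and the groups overlapped. The mean was 183702 ± 10334 in LD-high and 196973 ± 19614 in LD-low libraries (SD, n = 3 each). The log2 change was -0.10 ± 0.10 (SE) with a limma adjusted p of 0.615. Without LD-low replicate 1 the log2 change was -0.02 (adjusted p 0.924), and with any other library left out it lay between -0.15 and -0.06.

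Selplg encodes PSGL-1, the ligand by which white blood cells bind selectins, and is the neighbour of Tmem119. It had 233544, 207232 and 218181 normalized counts in LD-high replicates 1 to 3, against 262471, 233003 and 226816 in LD-low replicates 1 to 3. The highest LD-high library exceeded the lower 2 of the LD-low ones. The log2 change was -0.13 ± 0.10 (limma adjusted p 0.476), with an interval from -0.34 to 0.07. It was -0.07 without LD-low replicate 1 and lay between -0.18 and -0.09 with any other library left out. Neutrophils also carry PSGL-1, and their 6 markers, at 0 in LD-high libraries, summed to between 1220 and 4523 normalized counts in LD-low ones. Their part in the Selplg values was not tested. Of 9 tested genes for the enzymes that build the selectin-binding sugars and sulphates, 0 passed in either direction. The smallest p on that list belonged to the sialyltransferase gene St3gal6, with a log2 change of -0.18 ± 0.08, and to St3gal4, with 0.29 ± 0.14 (limma adjusted p 0.255 and 0.277).

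Tmem119 and Selplg varied together across the libraries more closely than any other pair of the 9. Selplg spans 114267807 to 114280510 of chromosome 5, also on the minus strand, so that 17281 bases and 0 protein-coding genes separate the pair. Likeness was measured as the root mean square difference of log2 values, each gene centred on its mean over the 6 libraries. For Tmem119 and Selplg this was 0.0242, and among 4695 other genes that averaged 1000 normalized counts or more, Selplg was the nearest to Tmem119 (rank 1), and Tmem119 ranked 3 from Selplg. Per kilobase of transcript, Selplg exceeded Tmem119 in all 6 libraries, by a ratio between 1.02 and 1.07. The transcripts share a high GC content, 59.1% for Tmem119 and 55.6% for Selplg, and the part of GC or of the shared locus in this likeness was not tested. The transcripts of the pair, like those of the other 7 genes, had 0 matches of at least 100 bases at 95% identity to a protein-coding transcript of another gene.

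**Figure D2:**
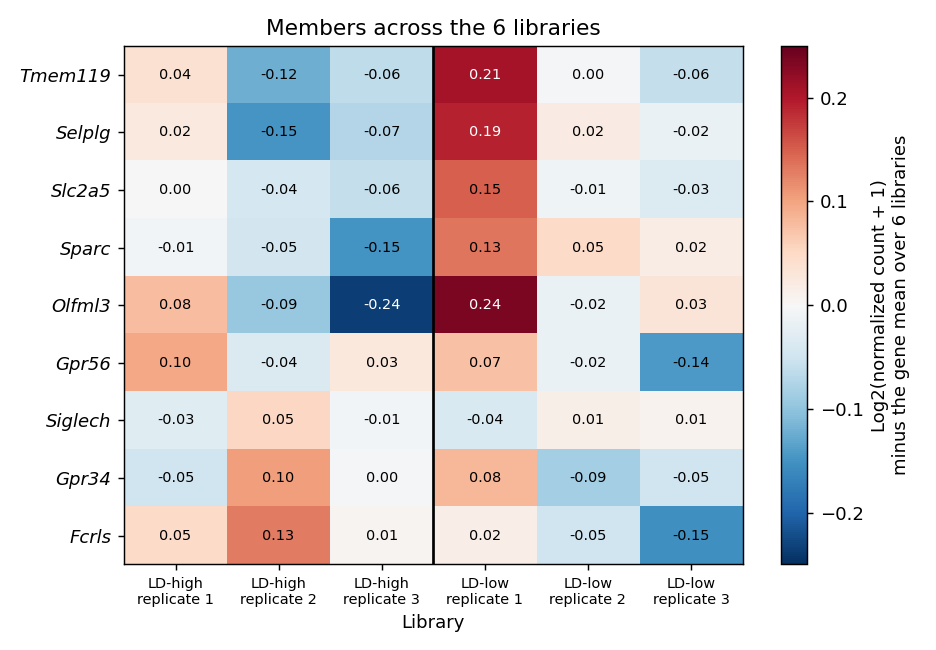
Log2(normalized count + 1) of each gene minus its mean over the 6 libraries, with LD-high libraries left of the line and LD-low libraries right of it. Tmem119 and Selplg run nearly in parallel (root mean square difference 0.0242), and LD-low replicate 1 is the highest library for both, for Slc2a5, for Sparc and for Olfml3.

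Siglech, of the family of sialic acid-binding lectins (Siglecs), signals through the adaptor Tyrobp and was the steadiest of the 9. The gene spans 63023548 to 63034295 of chromosome 7 on the plus strand. It had 51003, 54023 and 51832 normalized counts in LD-high replicates 1 to 3, against 50746, 52613 and 52394 in LD-low replicates 1 to 3. All 6 libraries fell within this narrow range and the groups overlapped. The means were 52286 ± 1561 in LD-high and 51917 ± 1021 in LD-low libraries (SD, n = 3 each). The log2 change was 0.01 ± 0.07 with an interval from -0.14 to 0.16 (limma adjusted p 0.957). Only 1.58% of all tested genes had a smaller within-group coefficient of variation. Of 3 genes for its signalling partners, 0 passed. The smallest p was that of the adaptor gene Tyrobp, at 0.23 ± 0.08 on the log2 scale (limma adjusted p 0.128), followed by the kinase gene Syk with 0.11 ± 0.07 (adjusted p 0.412). Siglech is also expressed by plasmacytoid dendritic cells in the mouse, whose 3 analysed markers summed to between 122 and 154 normalized counts in LD-high and between 129 and 180 in LD-low libraries. Their defining marker Ccr9 had at most 4.48 in an LD-high and 11.1 in an LD-low library, and 0 of 2 tested passed, Cox6a2 at -0.46 ± 0.33 and Pacsin1 at 0.04 ± 0.23 on the log2 scale.

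Among the mouse Siglecs, Siglech was the most abundant of the 7 analysed per kilobase of transcript. It averaged 22723 ± 678 normalized counts per kilobase in LD-high and 22563 ± 444 in LD-low libraries. Cd33 followed with 4818 ± 59.6 in LD-high and 4585 ± 388 in LD-low libraries, then Siglece with 2225 ± 93.6 and 2395 ± 247 in the same order (SD, n = 3 each). Of 6 other Siglec genes tested, 1 rose and 5 did not pass. The riser was Cd22, an inhibitory Siglec best known from B cells, with 1538, 1092 and 1461 normalized counts in LD-high replicates 1 to 3, against 1083, 893 and 741 in LD-low replicates 1 to 3. Its log2 change was 0.59 ± 0.14 (limma adjusted p 0.034), and the call was lost in 4 of the 6 fits that left out 1 library, namely LD-high replicate 1, LD-high replicate 3, LD-low replicate 2 and LD-low replicate 3 (highest adjusted p 0.161). It was also lost with quantile normalization (adjusted p 0.0594).

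Fcrls, an Fc receptor-like scavenger receptor that separates mouse microglia from other macrophages, had the highest log2 change of the 9. It lies on chromosome 3 from 87054680 to 87067660 on the minus strand. It had 90012, 95308 and 87520 normalized counts in LD-high replicates 1 to 3, against 88048, 84146 and 78336 in LD-low replicates 1 to 3. The groups overlapped by the narrow margin between LD-high replicate 3 and LD-low replicate 1. The means were 90947 ± 3977 in LD-high and 83510 ± 4887 in LD-low libraries (SD, n = 3 each). This was a log2 change of 0.12 ± 0.08 with an interval from -0.05 to 0.29 (limma adjusted p 0.406). The value stayed between 0.03 and 0.16 under all alternatives tried. The related Fcrl1 averaged 1423 ± 73.1 normalized counts per kilobase in LD-high and 1327 ± 21.4 in LD-low libraries (SD, n = 3 each). Fcrls exceeded it per kilobase by a ratio of 25.9 to 29.5 in LD-high and 26.3 to 29.4 in LD-low libraries. On the list of its family, 0 of 2 tested genes passed, with a log2 change of 0.10 ± 0.07 for Fcrl1 and -0.20 ± 0.38 for Fcrlb.

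Gpr34, a receptor for lysophosphatidylserine, had 67618, 75178 and 69837 normalized counts in LD-high replicates 1 to 3, against 74110, 65947 and 67630 in LD-low replicates 1 to 3. The 2 groups covered nearly the same range. Its log2 change was 0.03 ± 0.08 with an interval from -0.13 to 0.20 (limma adjusted p 0.860). The gene lies on chromosome X from 13209215 to 13217984 within Cask on the opposite strand, and their annotated exons share 0 bases. Abhd12, the main brain hydrolase of lysophosphatidylserine, and Abhd16a, which makes it, had log2 changes of 0.03 ± 0.07 and -0.05 ± 0.08, and 0 of the 2 passed.

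Gpr56, an adhesion G protein-coupled receptor now named Adgrg1 that binds collagen III and transglutaminase 2, had 62678, 57216 and 59719 normalized counts in LD-high replicates 1 to 3, against 61691, 57932 and 53062 in LD-low replicates 1 to 3. The groups overlapped, and replicate 1 was the highest library in both. On the log2 scale the change was 0.06 ± 0.08 with an interval from -0.11 to 0.23 (limma adjusted p 0.731). It was 0.00 without LD-low replicate 3. Leaving out LD-low replicate 1 gave 0.11, and leaving out LD-high replicate 1 gave 0.02. Of the genes for its ligand Tgm2 and for its signalling partners Gna12, Gna13 and Rhoa, 0 of 4 passed. Gna13 and Rhoa, with the smallest p, stood at 0.16 ± 0.06 and 0.21 ± 0.08 on the log2 scale (limma adjusted p 0.172 and 0.175). The relative Gpr97, of the same subfamily of adhesion receptors, averaged 2.78 ± 4.82 normalized counts in LD-high and 6.14 ± 3.86 in LD-low libraries (SD, n = 3 each). Gpr56 itself lies on chromosome 8 from 97508503 to 97538090 on the plus strand.

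Slc2a5 encodes GLUT5, a fructose transporter that microglia express in the brain, and lies on chromosome 4 from 149493392 to 149518278 on the plus strand. It had 43469, 42209 and 41736 normalized counts in LD-high replicates 1 to 3, against 48204, 43167 and 42454 in LD-low replicates 1 to 3. LD-low replicate 1 stood above the other 5 libraries, which lay close together. Its log2 change was -0.07 ± 0.07 with an interval from -0.22 to 0.09 (limma adjusted p 0.648), and it was -0.01 without LD-low replicate 1 and between -0.10 and -0.06 with any other library left out. Per kilobase Slc2a5 was the leading hexose transporter, with 13449 ± 284 normalized counts in LD-high and 14125 ± 992 in LD-low libraries (SD, n = 3 each). It exceeded the glucose transporter gene Slc2a1 per kilobase by a ratio of 12.6 to 14.0 in LD-high and 12.8 to 14.0 in LD-low libraries.

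Of 11 other hexose transporter and fructose enzyme genes, 1 fell and 10 did not pass. The transporter gene Slc2a6 had 104, 94.1 and 104 normalized counts in LD-high replicates 1 to 3, against 231, 162 and 162 in LD-low replicates 1 to 3. It had no overlap between the groups, as had 24.3% of all tested genes in either direction. Its log2 change was -0.86 ± 0.20 (limma adjusted p 0.0313), and the call was lost in each of the 6 fits that left out 1 library (highest adjusted p 0.0983, without LD-low replicate 1). Quantile normalization lost it too (adjusted p 0.0734). The ketohexokinase gene Khk, whose enzyme takes the first step of fructose use, averaged 1486 ± 66.8 normalized counts in LD-high and 1290 ± 40.1 in LD-low libraries (SD, n = 3 each). That is 0.20 ± 0.08 on the log2 scale (limma adjusted p 0.172).

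Both secreted genes had log2 changes below 0, that of Olfml3 the lowest of the 9 and that of Sparc level with Selplg. Sparc encodes osteonectin, a matrix protein that binds collagen and calcium, from chromosome 11, 55208002 to 55233582, on the minus strand. It had 132406, 128790 and 119933 normalized counts in LD-high replicates 1 to 3, against 145901, 137478 and 134789 in LD-low replicates 1 to 3. Every LD-high library lay below every LD-low one. The means were 127043 ± 6417 in LD-high and 139389 ± 5797 in LD-low libraries (SD, n = 3 each). The log2 change was -0.13 ± 0.08 with an interval from -0.31 to 0.04 (limma adjusted p 0.389). With 1 library left out it lay between -0.16 and -0.09. Such a lack of overlap was found for 1 of the 9 genes, where 24.3% of all tested genes had it in either direction and 11.7% with LD-high lower.

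Endothelial and mural cells also make Sparc. The 5 endothelial markers analysed summed to between 1301 and 1677 normalized counts in LD-high and between 1091 and 1509 in LD-low libraries, most of it Pecam1, and 0 of 3 tested passed. Their part in Sparc was not tested. Cdh5 averaged 37.0 ± 11.6 normalized counts in LD-high and 21.7 ± 2.16 in LD-low libraries, and Flt1 averaged 2.86 ± 2.80 in LD-high and 21.8 ± 2.26 in LD-low libraries (SD, n = 3 each). The smallest p was that of Flt1 (limma adjusted p 0.0563), followed by Cdh5 (0.327). The mural marker Pdgfrb averaged 6.14 ± 8.23 in LD-high and 13.3 ± 4.34 in LD-low libraries and did not pass (adjusted p 0.314). Sparcl1, the relative of Sparc that astrocytes make, averaged 16.9 ± 2.77 in LD-high and 17.0 ± 6.50 in LD-low libraries. Of 3 tested relatives of Sparc, 0 passed, and Smoc1 and Spock1, with the smallest p, stood at -1.33 ± 0.49 and -1.96 ± 0.87 on the log2 scale, at no more than 39.0 normalized counts in any library (limma adjusted p 0.150 and 0.224).

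Olfml3 encodes a secreted olfactomedin-domain glycoprotein and spans 103537623 to 103541924 of chromosome 3 on the minus strand. It had 82115, 72936 and 66137 normalized counts in LD-high replicates 1 to 3, against 91684, 76989 and 79558 in LD-low replicates 1 to 3. LD-high replicate 1 exceeded LD-low replicates 2 and 3, so the groups overlapped. The means were 73729 ± 8018 in LD-high and 82744 ± 7848 in LD-low libraries (SD, n = 3 each). Its log2 change was -0.17 ± 0.09 with an interval from -0.37 to 0.03 (limma adjusted p 0.343). It was -0.09 without LD-high replicate 3, -0.09 without LD-low replicate 1 and between -0.25 and -0.16 with any other library left out. After quantile normalization, which forces the same distribution of values on each library, Olfml3 fell by 0.28 and Selplg fell by 0.15 on the log2 scale and both passed limma (adjusted p 0.0159 and 0.0272), where 2.17% of all tested genes were called and 1.24% called lower. The noncoding transcript Gm16520 shares 110 exonic bases with Olfml3 on the same strand. The relative Olfml2b had a log2 change of -0.15 ± 0.09 (limma adjusted p 0.406), the rarer Olfm1 one of 0.24 ± 0.45 (adjusted p 0.825), and 0 of 2 tested olfactomedin relatives passed.

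**Figure D3:**
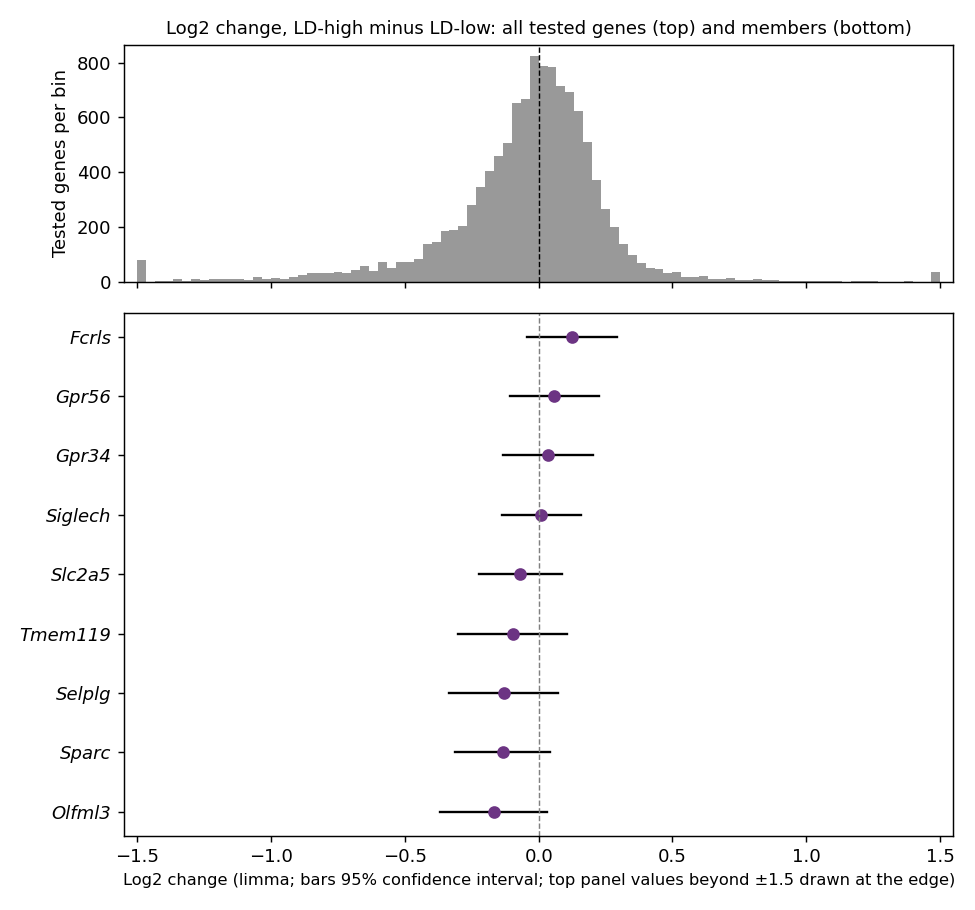
The upper panel counts all 11624 tested genes by log2 change, LD-high minus LD-low, and the lower panel gives the 9 genes with 95% confidence intervals from limma. All 9 intervals span 0 and lie between -0.37 and 0.29.

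Per kilobase of transcript, 7 of the 9 genes kept their place in the order in all 6 libraries, while Olfml3 and Siglech changed places. Selplg averaged 84352 ± 5076 normalized counts per kilobase in LD-high and 92459 ± 7317 in LD-low libraries (SD, n = 3 each), and ranked 8 of 12434 genes with a transcript length. Slc2a5, the lowest of the 9, ranked 70. Between them stood Tmem119 at rank 10, Sparc at 15, Fcrls at 24, Gpr34 at 29, Olfml3 at 40, Siglech at 41 and Gpr56 at 57. Each gene exceeded the next in all 3 LD-high and all 3 LD-low libraries, except that Olfml3 exceeded Siglech in 1 LD-high and 2 LD-low libraries. The levels of Olfml3 and Siglech lay within the spread of the libraries. The 9 genes together held 3.49%, 3.43% and 3.38% of all normalized counts in LD-high replicates 1 to 3, against 3.86%, 3.65% and 3.62% in LD-low replicates 1 to 3. These shares did not overlap. Among single genes, 24.3% of those tested lacked overlap in normalized counts, and other sets of genes were not analysed in this way. The totals under these shares overlapped, with 27478413, 26453113 and 26538849 normalized counts in LD-high replicates 1 to 3, against 27006509, 25773414 and 25361196 in LD-low replicates 1 to 3. The summed counts themselves overlapped, from 896618 to 957728 in LD-high and from 917197 to 1042071 in LD-low libraries.

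**Figure D4:**
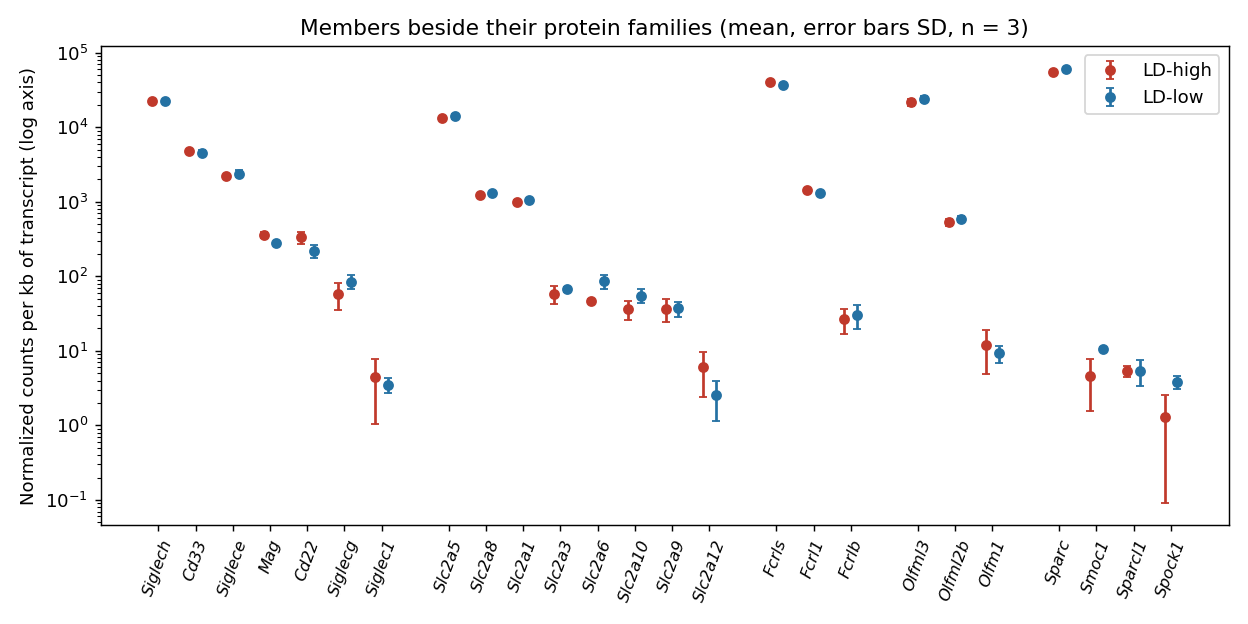
Mean normalized counts per kilobase of transcript (log axis, error bars SD, n = 3 each) of Siglech, Slc2a5, Fcrls, Olfml3 and Sparc, each followed by analysed relatives, in LD-high and LD-low libraries. Each of the 5 is the most abundant of its group, by a ratio of at least 4.53 for Siglech over Cd33 in each library.

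Replicate 1 was the highest library of both groups for 6 of the 9 genes (Tmem119, Selplg, Slc2a5, Sparc, Olfml3 and Gpr56), as for 17.0% of all tested genes. Replicates 1 were also the most deeply sequenced libraries of their groups. The same 6 genes had the highest transcript GC contents of the 9, from 52.5% to 59.1%, while Gpr34, Siglech and Fcrls had 37.1%, 45.5% and 48.5%, against a median of 50.3% over tested genes. All 5 genes with a log2 change below 0 were among these 6, Gpr56 being the exception with 0.06. Over all tested genes, the median log2 change was 0.014 in the 2107 genes with the lowest GC content and -0.048 in the 2107 with the highest. With a correction for GC content, Tmem119 had a log2 change of -0.05, Selplg one of -0.11, Sparc one of -0.14, Olfml3 one of -0.16 and Fcrls one of 0.10. Slc2a5 stayed at -0.07 and Gpr34 at 0.03, Siglech turned to -0.02, and Gpr56 moved from 0.06 to 0.08. None of the 9 passed limma with this correction. The part of depth or GC content in the values of the 9 genes was not tested beyond this.

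**Figure D5:**
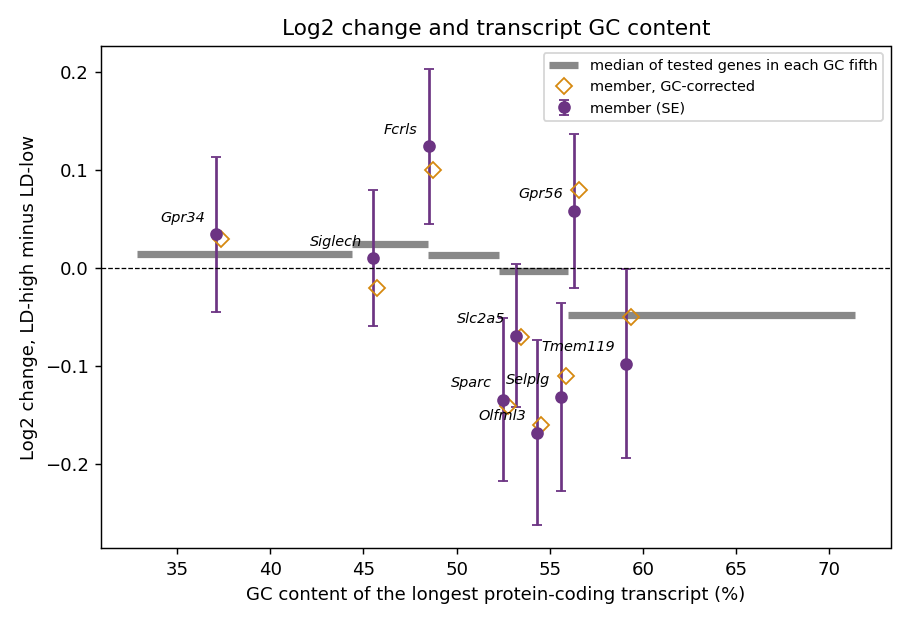
Log2 change, LD-high minus LD-low, against the GC content of the longest protein-coding transcript for the 9 genes (filled points with SE, open diamonds after GC correction, shifted right for legibility). Grey bars give the median of tested genes in 5 bins of GC content with near-equal numbers of genes. From the lowest bin to the highest, the medians were 0.014, 0.025, 0.013, -0.003 and -0.048.

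The genes most like the mean profile of the 9 were found among 4687 others that averaged 1000 normalized counts or more. They were Scamp2, Smek1, Sumf1, Ing5 and Sptlc2, with root mean square differences between 0.0161 and 0.0253 on the log2 scale over 6 libraries, against a median of 0.114 for all candidates. These genes were picked as the nearest of many, so small differences follow from the choice. The mean profile itself ran only from -0.06 in LD-high replicate 3 to 0.12 in LD-low replicate 1. Within the 9, Olfml3 and Fcrls were the farthest apart at 0.180. After Tmem119 and Selplg, the closest pairs were Tmem119 and Slc2a5 (0.0444), Slc2a5 and Sparc (0.0495) and Selplg and Slc2a5 (0.0502). Gpr34 and Fcrls stood at 0.0668, and Olfml3 and Sparc at 0.0723.

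Of 42 other homeostatic microglial genes tested, 2 rose, 0 fell and 40 did not pass. Of all tested genes 3.36% were called, 1.53% higher and 1.82% lower. The list's median log2 change was 0.01. Lag3, an inhibitory receptor gene, had 6588, 6085 and 6081 normalized counts in LD-high replicates 1 to 3, against 5009, 4770 and 3740 in LD-low replicates 1 to 3. It had no overlap between the groups, as had 24.3% of all tested genes in either direction, and its log2 change was 0.48 ± 0.09 (limma adjusted p 0.0163). Its call was lost without LD-high replicate 3 and without LD-low replicate 3 (highest adjusted p 0.0572). Crybb1, a crystallin gene that microglia express, had 4063, 4642 and 3984 normalized counts in LD-high replicates 1 to 3, against 3312, 3681 and 3230 in LD-low replicates 1 to 3. Its log2 change was 0.31 ± 0.08 (adjusted p 0.0437), and the call was lost in each of the 6 fits that left out 1 library (highest adjusted p 0.173) and with quantile normalization (adjusted p 0.0933). Of 10 tested genes for the supply and signalling of transforming growth factor beta, 0 passed. The smallest p on that list were those of the receptor gene Tgfbr1, at 0.26 ± 0.10 on the log2 scale, and the integrin gene Itgav, at 0.18 ± 0.10 (limma adjusted p 0.157 and 0.333).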

How the data were processed

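RNA from sorted cells was turned into libraries with the SMART-Seq v4 and Nextera XT kits and sequenced on both ends, per the labels. Quality was assessed with FastQC 0.11.4, reads were mapped to mm9 with STAR 2.5.1b and counted by its gene counting mode, and the authors used DESeq2, per the labels and the series' design text. The sources used here do not give the annotation, the strand column or any gene filter. Values in the deposited table are a signal, each library's read counts over 1 size factor: 100% of them were whole multiples of 1 step per library within 0.01 reads, which gave back the reads. The size factors lay between 0.599 and 1.43.

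LD-high was compared with LD-low in limma 3.58.1 (R 4.3.3) on log2(normalized count + 1), its variance prior following the mean level, over 11624 genes with at least 10 normalized counts in at least 3 libraries, and without the replicate number. P-values are 2-sided, adjusted by the Benjamini-Hochberg method, with a threshold of 0.05. All 9 genes passed the filter. Log2 changes are on this scale, with their SE after the ± sign. edgeR 4.0.16 and DESeq2 1.42.0 were run on the recovered reads as alternatives, besides other pseudocounts, filters, normalizations, corrections for transcript length and GC content, a replicate block and each library left out.

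Coordinates, lengths and GC contents came from GENCODE vM1 on NCBIM37 (mm9), where 12949 of 14148 symbols matched, 12434 of them with a protein-coding transcript, whose longest form was used. Promoters came from RefSeq on GRCm38.p6. The 9 genes and the gene lists were chosen with earlier results of these data known. All 9 genes are named, and from each list the genes past the threshold or, with none, the 2 with the smallest p, apart from some items that are not reported here. Genes named beyond this rule (P2ry12, Csf1r, C1qa, Ccr2, Tgm2, Khk, Dak, Slc2a10, Aldoa, Gna12, Sparcl1, Gpr97, Ccr9, Pecam1, Slc2a1, Cd33, Siglece) were added after their values were seen. Floors and counting errors leave out amplification, as no molecular identifiers were used.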

Additional observations from a re-analysis of the deposited data

How the results depend on the processing

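No alternative called any of the 9 genes other than quantile normalization, which called 2 of them. Sparc was not called, with a limma adjusted p of 0.0714 after quantile normalization and 0.0727 with equal totals. Of 171 alternative values of the 9 log2 changes, 161 kept their direction and their side of the threshold. Siglech turned to -0.03 with equal totals, -0.06 with quantile normalization, -0.02 with the GC correction, and -0.01 without LD-high replicate 2 and without LD-low replicate 1. Gpr34 turned to -0.01 with equal totals and without LD-high replicate 2, and Gpr56 to -0.03 with quantile normalization. With 1 library left out, Siglech ran from -0.01 to 0.03 and Gpr34 from -0.01 to 0.08. The genes called over the whole table, 390 as reported, numbered 252 with quantile normalization, 15 without the trend, 715 with DESeq2 and 52 to 421 with 1 library left out, the fewest without LD-low replicate 3. Of these calls 178 were higher and 212 lower as reported, against 118 and 233 with equal totals and 382 and 333 with DESeq2. The other homeostatic genes called, 2 as reported, numbered 4 with equal totals, 7 with quantile normalization, 0 without the trend, 5 with DESeq2 and 0 to 3 with 1 library left out. The cause of these differences was not tested.

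With the replicate number as a block, 1090 genes and 12 other homeostatic genes were called, and 0 of the 9. Of the 9, Olfml3 then had the lowest limma adjusted p, at 0.0618, followed by Sparc at 0.12. Deviations of same-numbered samples correlated at 0.161, 0.132 and 0.0641 across genes for replicates 1, 2 and 3, and each sample correlated best with its own number, a hint from the data and not from the design, since the labels do not say what a shared number means. The level of a transcript says nothing of protein at the surface or in the medium.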

Other observations

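Genes for the G proteins and the GTPase that Gpr56 couples to did not pass, with these levels: Gna12 averaged 15867 ± 1722 normalized counts in LD-high and 13638 ± 1224 in LD-low libraries, Gna13 averaged 7636 ± 254 in LD-high and 6824 ± 192 in LD-low, and Rhoa averaged 9622 ± 850 in LD-high and 8331 ± 780 in LD-low (SD, n = 3 each; limma adjusted p 0.179, 0.172 and 0.175). Among the enzyme genes of fructose use, Dak, the gene for triokinase, had 179, 164 and 175 normalized counts in LD-high replicates 1 to 3, against 120, 102 and 140 in LD-low replicates 1 to 3 (limma adjusted p 0.133). Its groups did not overlap, as for 24.3% of all tested genes in either direction. On the same list, the transporter gene Slc2a10 went the other way, at -0.63 ± 0.22 on the log2 scale (limma adjusted p 0.133). The enzyme gene Aldoa stood at 0.20 ± 0.07 (limma adjusted p 0.124). The list's median log2 change was -0.05, and the transporter gene Slc2a5 had a log2 change of -0.07 ± 0.07.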
